A study of Mus musculus with 32 samples.

Results

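Control 3T3-L1 cells carrying a scramble hairpin (shCtrl) were compared at day 11 and day 7 of adipogenic differentiation. The comparison takes 8 of the 32 libraries of the study, chosen by their labels alone: the 4 shCtrl libraries of day 11 and the 4 of day 7. 3T3-L1 is a mouse preadipocyte line, a fibroblast-like cell that stops dividing at confluence and becomes a lipid-laden fat cell after hormonal induction. The study followed knockdown of Zbtb9, a zinc finger protein, by 2 independent short hairpin RNAs (shRNAs) beside the scramble control at days 0, 3, 7 and 11, with RNA sequencing as its readout.

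Both groups carry the genotype label WT, and both had been induced at day 0 with dexamethasone (1 µM, a glucocorticoid), 3-isobutyl-1-methylxanthine (IBMX, 0.5 mM, an inhibitor of cyclic AMP breakdown) and insulin (167 nM). From day 3 to day 7 insulin at 167 nM was the only addition. From day 7 to day 11 the medium had none. The day 7 cells (labelled premature adipocyte) therefore stood at the end of the insulin phase, and the day 11 cells (labelled mature adipocyte) had spent 4 days without added insulin. Time in culture and the end of the insulin phase change together between the groups and cannot be told apart. The labels number the libraries of each day as biological replicates 1 to 4 without saying whether these were separate cultures, so p-values measure the spread between these libraries.

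Insulin signals through its receptor, Irs proteins, phosphatidylinositol 3-kinase and Akt. In fat cells it moves the glucose transporter Slc2a4 (Glut4) to the surface, raises lipid synthesis, restrains lipolysis and keeps FoxO transcription factors out of the nucleus. Pparg and Cebpa are the transcription factors that hold the fat cell programme in place. 3T3-L1 cells pass through a wave of cell division after induction, before they fill with lipid, and dexamethasone acts on them through the glucocorticoid receptor Nr3c1.

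The day 7 libraries held 22280321 to 27179423 reads in genes and the day 11 libraries 26486034 to 31073716, as rebuilt from the deposited values. No 2 libraries of a day were the same library: the chi-square of their reads was 4.58 to 8.88 per degree of freedom over the 12 pairs. Values are given below as normalized reads, rebuilt read numbers scaled for depth by each library's size factor, and as log2 differences of the deposited values, day 11 minus day 7. The deposited values draw genes with few reads towards their mean, so a log2 difference is smaller than the ratio of normalized reads for such genes. A change written as going from a value to another gives mean normalized reads ± SD over the 4 libraries of each day. Because the samples are bulk RNA, fewer cells of a type and less RNA per cell cannot be told apart.

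The adipocyte labels were checked against defining genes. Adipoq, Fabp4, Plin1 and Cfd were abundant in each library of both days, as given below, while leptin (Lep) was at or near 0 and the preadipocyte gene Dlk1 was also abundant on both days. Markers of other cell types were summed. Over 9 macrophage markers in the table, normalized reads were 531 to 582 at day 7 and 776 to 877 at day 11, most of them from Cd14 and Cd68, while Ptprc, Itgam and Fcer1g had at most 3 reads in each library. The 9 endothelial markers summed to 47.2 to 73 and to 89.2 to 115, with Cdh5, Kdr and Tie1 at that floor. The 7 muscle markers summed to 1872 to 2376 and then 1619 to 1867, nearly all from Mylk. The 10 bone and cartilage markers summed to 14605 to 16008 and then 18634 to 21683, mainly from Spp1 (osteopontin), with Bglap at 0 in all 8 libraries. The 8 epithelial markers summed to 30 to 91.5 and then 11.1 to 20.9, with the high value in day 7 replicate 1. In none of the 5 sets did the sums of the 2 days overlap. The exact permutation p of each was 0.0286 (two-sided), the smallest that 4 against 4 libraries allow. Their part in the results below was not tested.

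Between day 7 and day 11, 7060 of 13284 genes tested changed, which is 53.1%, at an adjusted p under 0.05 in limma, a linear model fitted across all genes. Of these genes, 3703 rose (27.9% of those tested) and 3357 fell (25.3%). The median log2 difference of all genes tested was 0.02 and the median size of a difference was 0.18, so most changes were small. A change of at least 1 on the log2 scale was reached by 548 genes (4.13%), of which 193 rose (1.45%) and 355 fell (2.67%). On rebuilt reads, which are not drawn towards the mean, 934 genes reached it as log2(normalized reads + 1) and 952 with voom. The values of the 2 days did not overlap for 6351 genes (47.8%). List genes with too few reads to test were Mlxipl, Pnpla3, Igfbp1, Adrb1, Cpt1b, Ehhadh, Plin5, Oasl1, Ccl20, Cxcl2, Icam1, Eln, Cnn1, Acta1, Cox8b, Npas2, Igfbp2, Igfbp5, Fgf21, Cd34, Wnt10b, Sfrp1, Cidea and Lep, while Ucp1 and Rbp4 were not analysed here. Every list below is read against these shares of all genes tested, because a list near 53.1% does no more than the table as a whole.

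The largest fall was that of Fam107a, an actin-binding protein whose gene is known to respond to glucocorticoids. Fam107a (ENSMUSG00000021750; chr14:8296274-8318023, minus strand of GRCm38) had 4601, 4556, 4213 and 4104 normalized reads in the day 7 libraries and 25.2, 23.4, 20.9 and 22.3 in the day 11 libraries (log2 difference -6.63, SE 0.07, limma adjusted p = 2.67e-27). Its mean was 190-fold lower at day 11. Sult1a1, a phenol sulfotransferase, fell from 1461 ± 73.8 to 66.7 ± 25.5 normalized reads (SD, n = 4 libraries a day; limma adjusted p = 1.20e-07).

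A pair of related aldehyde dehydrogenases was among the 10 largest falls. Aldh1a1, which oxidises retinaldehyde to retinoic acid, had 1570, 1567, 1589 and 1599 normalized reads in the day 7 libraries and 142, 133, 107 and 82.7 in the day 11 libraries (log2 difference -3.50, SE 0.11, limma adjusted p = 4.85e-14), and its relative Aldh1a7 had 4458, 4134, 4777 and 4719 normalized reads in the day 7 libraries and 305, 243, 246 and 199 in the day 11 libraries (log2 difference -4.01, SE 0.10, limma adjusted p = 5.27e-12). In both genes the spread at day 11 was wider in proportion than at day 7. Other falls among them were those of the serine protease inhibitor Serpina3k (-3.91), the transmembrane cytochrome Cyb561 (-3.65), the B cell attracting chemokine Cxcl13 (-3.58), the ribonuclease Ear2 (-3.57) and the EGF receptor inhibitor Errfi1 (-3.39). Ear2 had at most 3 reads in every day 11 library, so its level was at least 69.2-fold lower than at day 7, and its reads cannot be separated with certainty from those of Ear1, which is 96.4% identical over 717 bases of the transcript.

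The largest rise was that of Kif26b, an unconventional kinesin linked to cell polarity, which had 22.6, 32.5, 35 and 60 normalized reads in the day 7 libraries and 962, 1012, 1130 and 945 in the day 11 libraries (log2 difference 4.07, SE 0.14, limma adjusted p = 2.45e-12). Itga11, the collagen-binding integrin subunit of fibroblasts, had 41.3, 36.5, 29.1 and 39.3 normalized reads in the day 7 libraries and 613, 668, 522 and 700 in the day 11 libraries (log2 difference 3.47, SE 0.11, limma adjusted p = 3.03e-18). Sorbs2, an adaptor between actin and cell junctions, rose from a few reads: 3.94, 4.06, 5.83 and 6.93 normalized reads in the day 7 libraries and 210, 192, 258 and 193 in the day 11 libraries (log2 difference 3.28, SE 0.12, limma adjusted p = 8.41e-17). All 3 were chosen for a rise without overlap between the days.

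Thrombospondin 1 (Thbs1), a secreted matrix glycoprotein that activates latent TGF-beta, had 1499, 1556, 1668 and 1729 normalized reads in the day 7 libraries and 15526, 13791, 14932 and 13280 in the day 11 libraries (log2 difference 3.05, SE 0.05, limma adjusted p = 3.39e-22). The neutrophil-attracting chemokine Cxcl5 had 2422, 2262, 2139 and 2745 normalized reads in the day 7 libraries and 18677, 17539, 18809 and 16084 in the day 11 libraries (log2 difference 2.81, SE 0.07, limma adjusted p = 4.31e-13). Other secreted signals among the 10 largest rises were the activin subunit Inhbb (2.40) and the Wnt amplifier R-spondin 2 (Rspo2, 2.36). The water channel Aqp5 rose by 2.86, the protease inhibitor Spink5 by 2.76 and the plasma protein Itih4 by 2.56.

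**Figure D1:**
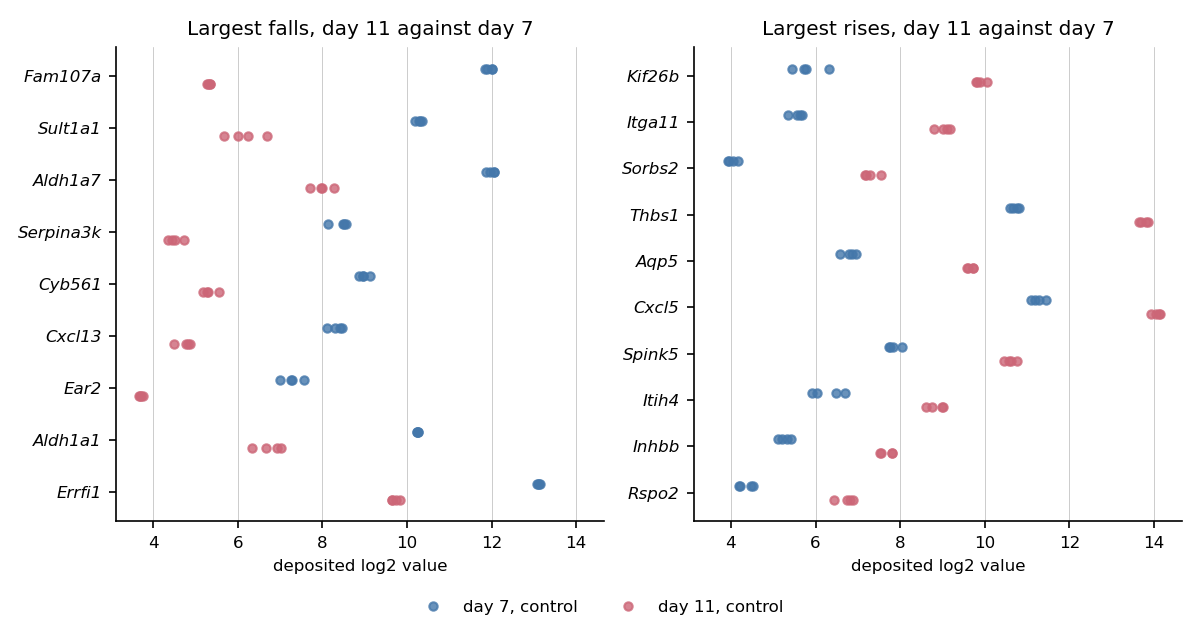
Deposited log2 values (x axis) of the genes named above among those with the largest falls and rises (y axis) in the 4 control libraries of day 7 and the 4 of day 11, 1 point per library. The genes were chosen for large differences without overlap between the days, and Fam107a shows the widest gap, with a log2 difference of -6.63.

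The fat cell genes did not move together. Of 25 adipocyte identity genes 23 were tested, and 13 fell (56.5% of them, against 25.3% of all genes) while 5 rose (21.7%, against 27.9%), with a median log2 difference of -0.26. With a stricter filter of 50 that median was -0.46. Cidea and Lep had too few reads to be tested, and Car3 passed the filter on low values only through its day 7 libraries. Cidec, which enlarges lipid droplets, had 2762, 2493, 2310 and 2587 normalized reads in the day 7 libraries and 635, 462, 522 and 512 in the day 11 libraries (log2 difference -2.18, SE 0.08, limma adjusted p = 2.96e-13). Fabp4, the fatty acid carrier of fat cells, had 16781, 15457, 14868 and 14919 normalized reads in the day 7 libraries and 5420, 4663, 4796 and 3869 in the day 11 libraries (log2 difference -1.68, SE 0.09, limma adjusted p = 2.68e-07). Acsl1, which activates long-chain fatty acids, had 8483, 8135, 7813 and 8732 normalized reads in the day 7 libraries and 3573, 3392, 3542 and 3422 in the day 11 libraries (log2 difference -1.21, SE 0.04, limma adjusted p = 1.52e-17). Every day 11 library was below every day 7 library for these 3 genes.

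The master regulators fell too. Pparg fell from 3887 ± 108 to 2565 ± 162 normalized reads (log2 difference -0.58, SE 0.04, limma adjusted p = 7.49e-11), and Cebpa from 1598 ± 85.6 to 813 ± 47.5 (log2 difference -0.93, SE 0.05, limma adjusted p = 4.22e-13). Plin1, which coats the lipid droplet, fell by a small step from 1574 ± 123 to 1326 ± 106 (log2 difference -0.24, SE 0.06, limma adjusted p = 0.00169). The fatty acid transporter Cd36 was not called (log2 difference -0.04, SE 0.05, limma adjusted p = 0.575).

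Other defining fat cell genes rose over the same step. Adiponectin (Adipoq), the insulin-sensitising hormone of fat cells, had 1825, 1606, 1530 and 1873 normalized reads in the day 7 libraries and 2927, 2266, 2632 and 2256 in the day 11 libraries (log2 difference 0.54, SE 0.09, limma adjusted p = 5.50e-04). Adipsin (Cfd), a complement protease secreted by fat cells, had 1773, 1384, 1454 and 1539 normalized reads in the day 7 libraries and 3957, 2781, 3214 and 2937 in the day 11 libraries (log2 difference 1.03, SE 0.12, limma adjusted p = 1.78e-04). Lipoprotein lipase (Lpl), which frees fatty acids from circulating lipoproteins, rose from 21081 ± 966 to 43839 ± 2991 (log2 difference 1.02, SE 0.05, limma adjusted p = 9.46e-15). The beta 3 adrenergic receptor Adrb3 rose from 8.04 ± 1.63 to 48.1 ± 18.1 (log2 difference 1.46, SE 0.16, limma adjusted p = 6.10e-08), and 24.9% of its exon bases are shared with a gene on the opposite strand. The glycerol channel Aqp7 rose from 32.4 ± 11.2 to 87 ± 26.5 (log2 difference 1.03, SE 0.18, limma adjusted p = 9.93e-05). Leptin (Lep) had 4.92, 0, 0 and 1.15 normalized reads in the day 7 libraries and 0.813, 0, 0 and 0 in the day 11 libraries and was not tested.

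Secreted factors went both ways. Of 25 genes of this list 20 were tested, 11 rose (55.0%) and 7 fell (35.0%), and their median was 0.26, or 0.08 with no filter on low values. Angiotensinogen (Agt), the precursor of angiotensin, had 27800, 27230, 29916 and 27568 normalized reads in the day 7 libraries and 5129, 4662, 4647 and 4945 in the day 11 libraries (log2 difference -2.46, SE 0.04, limma adjusted p = 5.54e-23). Resistin (Retn) had 551, 529, 453 and 498 normalized reads in the day 7 libraries and 174, 116, 129 and 111 in the day 11 libraries (log2 difference -1.79, SE 0.11, limma adjusted p = 1.93e-12). The growth factor Igf1 had 1069, 959, 967 and 1135 normalized reads in the day 7 libraries and 3129, 2700, 2760 and 3058 in the day 11 libraries (log2 difference 1.43, SE 0.06, limma adjusted p = 9.31e-16), so that its day 11 libraries all stood above those of day 7. Angptl4, which inhibits lipoprotein lipase, rose from 3372 ± 256 to 7886 ± 598 (log2 difference 1.19, SE 0.05, limma adjusted p = 4.52e-13).

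The insulin signalling list had 15 of 25 genes called (60%, near the background of 53.1%), 7 of them higher and 8 lower, with a median of -0.05. Slc2a4, the insulin-responsive glucose transporter, had 309, 314, 290 and 334 normalized reads in the day 7 libraries and 136, 86, 113 and 111 in the day 11 libraries (log2 difference -1.38, SE 0.11, limma adjusted p = 1.24e-10). Tbc1d4, the Akt substrate that holds this transporter inside the cell, fell from 1373 ± 99.8 to 395 ± 40.6 (log2 difference -1.70, SE 0.07, limma adjusted p = 4.61e-16). Both genes stood lower in every day 11 library. Pik3r1, the regulatory subunit of phosphatidylinositol 3-kinase, fell from 9226 ± 268 to 4877 ± 126 (log2 difference -0.89, SE 0.04, limma adjusted p = 1.66e-15).

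The substrates of the receptor went opposite ways. Irs2 had 3339, 3650, 3726 and 3515 normalized reads in the day 7 libraries and 2075, 1974, 2116 and 2290 in the day 11 libraries (log2 difference -0.72, SE 0.05, limma adjusted p = 3.77e-12). Irs1 had 1926, 1912, 1856 and 1882 normalized reads in the day 7 libraries and 2523, 2113, 2249 and 2322 in the day 11 libraries (log2 difference 0.27, SE 0.05, limma adjusted p = 4.77e-05), and 30.9% of its exon bases are shared with a gene on the opposite strand. The days did not overlap for either gene. The receptor Insr was not called (log2 difference 0.09, SE 0.05, limma adjusted p = 0.0996), but was called without day 11 replicate 2 (limma adjusted p = 0.0259). Among the genes that rose were Trib3, a pseudokinase that binds Akt (0.93), the adaptor Grb14, which blocks the receptor (0.56), and the kinase Gsk3b (0.33).

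Of 27 FoxO target genes 26 were tested; 15 fell (57.7%) and 5 rose (19.2%), with a median of -0.35. Foxo1 itself fell from 2312 ± 71.7 to 1718 ± 148 (log2 difference -0.41, SE 0.05, limma adjusted p = 3.53e-07). Pdk4, the kinase that shuts off pyruvate dehydrogenase, had 4874, 5307, 5198 and 4787 normalized reads in the day 7 libraries and 1206, 1315, 1257 and 1326 in the day 11 libraries (log2 difference -1.91, SE 0.04, limma adjusted p = 2.10e-20). Pnpla2 (ATGL), the lipase that starts triglyceride breakdown, had 8238, 7788, 8256 and 8178 normalized reads in the day 7 libraries and 2611, 2386, 2550 and 2223 in the day 11 libraries (log2 difference -1.68, SE 0.04, limma adjusted p = 2.89e-19). Klf9, which glucocorticoids also induce, fell from 6669 ± 315 to 2792 ± 88 (log2 difference -1.21, SE 0.04, limma adjusted p = 2.00e-17). In all 4 genes every day 11 library was lower. The growth arrest gene Gadd45a went the other way, with 760, 739, 902 and 748 normalized reads in the day 7 libraries and 3342, 3427, 3953 and 3551 in the day 11 libraries (log2 difference 2.09, SE 0.06, limma adjusted p = 1.26e-17). For Gadd45a, 19.1% of exon bases are shared with a gene on the opposite strand. Trib1 and Sod2, the mitochondrial superoxide dismutase, rose by 0.54 and 0.52. The forkhead core GTAAACA, searched on both strands, was present in 4 of 26 RefSeq promoters of this list (15.4%), in 3.65% of all 32851 promoters and in 2.49% of those of genes tested, where a promoter is the stretch from 250 bases before to 50 after the start. It was also present in 8.33% of promoters of the glucocorticoid and clock list, 8% of the interferon list, 7.69% of the replication list and 7.41% of the mitosis list, and in none of the cholesterol list.

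Most genes that release or burn fatty acids fell. Of 27 genes for lipolysis and fatty acid oxidation 22 were tested, 17 fell (77.3%) and 4 rose (18.2%), with a median of -0.45. Pnpla2, given above, is a member. Lipe (hormone-sensitive lipase) had 2805, 2673, 2852 and 2696 normalized reads in the day 7 libraries and 2045, 1902, 2013 and 1989 in the day 11 libraries (log2 difference -0.46, SE 0.04, limma adjusted p = 2.12e-09) and was lower in every day 11 library. Cpt1a, which admits fatty acids to mitochondria, rose from 1491 ± 99.9 to 2034 ± 96.3 (log2 difference 0.43, SE 0.05, limma adjusted p = 1.19e-07), as did the coactivator Ppargc1a (0.69).

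In the list for fatty acid synthesis, 21 of 23 genes were tested, 14 fell (66.7%) and 3 rose (14.3%), with a median of -0.24. Srebf1, the transcription factor that insulin uses to switch on this pathway, had 4658, 4682, 4700 and 4615 normalized reads in the day 7 libraries and 2800, 3059, 2797 and 3106 in the day 11 libraries (log2 difference -0.64, SE 0.04, limma adjusted p = 3.55e-12). Its target Scd1, the desaturase that makes oleate, had 9967, 9067, 8743 and 9001 normalized reads in the day 7 libraries and 4577, 3904, 4336 and 4533 in the day 11 libraries (log2 difference -1.05, SE 0.05, limma adjusted p = 1.76e-14). Fatty acid synthase (Fasn) fell from 5098 ± 338 to 3792 ± 127 (log2 difference -0.41, SE 0.04, limma adjusted p = 3.06e-08). Thrsp, a nuclear cofactor of lipogenesis, fell from 134 ± 27 to 28 ± 11.8 (log2 difference -1.72, SE 0.17, limma adjusted p = 3.35e-08), and Acss2, which makes acetyl-CoA from acetate, from 660 ± 55.5 to 386 ± 39.2 (log2 difference -0.71, SE 0.08, limma adjusted p = 2.29e-08). The members that rose were malic enzyme Me1 (0.46) and the desaturases Fads2 (0.35) and Fads1 (0.20). A sequence 98.5% identical over 1638 bases exists for Me1.

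Cholesterol synthesis genes fell by small amounts. Of 24 tested genes of 25, 18 fell (75.0%) and 1 rose (4.17%), with a median of -0.32. Cyp51, the lanosterol demethylase, had 731, 684, 693 and 746 normalized reads in the day 7 libraries and 455, 434, 439 and 441 in the day 11 libraries (log2 difference -0.65, SE 0.06, limma adjusted p = 2.00e-09). Idi1 fell by 0.62 on the log2 scale, and 684 of its transcript bases have an identical copy elsewhere. The gene that rose was Fdft1 (log2 difference 0.15, SE 0.06, limma adjusted p = 0.0334), a small step, and it has a near-identical copy. Its call was lost without day 7 replicate 2 or 3, or without day 11 replicate 1 or 3 (limma adjusted p up to 0.112). The sterol element TCACNCCAC was present in 1 of 20 promoters of the list (5.0%), in 1.24% of all promoters and in 1.09% of those of genes tested.

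The list that joins genes induced by glucocorticoids with the circadian clock had 26 of 27 genes tested, 11 lower (42.3%) and 8 higher (30.8%), and a median of -0.03. Fkbp5, the chaperone partner that restrains the glucocorticoid receptor, had 25485, 25225, 26588 and 25407 normalized reads in the day 7 libraries and 3533, 3561, 3339 and 3348 in the day 11 libraries (log2 difference -2.81, SE 0.04, limma adjusted p = 4.91e-25). Zbtb16 (PLZF), a zinc finger repressor, had 2957, 3211, 3144 and 2852 normalized reads in the day 7 libraries and 395, 387, 436 and 427 in the day 11 libraries (log2 difference -2.76, SE 0.05, limma adjusted p = 5.83e-22). Tsc22d3 (GILZ), a mediator of the anti-inflammatory action of glucocorticoids, had 10899, 10852, 10959 and 9937 normalized reads in the day 7 libraries and 1947, 1914, 1782 and 1779 in the day 11 libraries (log2 difference -2.44, SE 0.04, limma adjusted p = 6.30e-23). Each of these 3 genes was several-fold lower in every day 11 library than in any day 7 library.

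The clock gene Per1, which also has glucocorticoid response elements, fell from 3617 ± 219 to 880 ± 78.3 (log2 difference -1.96, SE 0.06, limma adjusted p = 2.36e-18). The kinase Sgk1, which glucocorticoids also induce, was called higher (0.24). The receptor itself, Nr3c1, rose from 4446 ± 140 to 5522 ± 185 (log2 difference 0.30, SE 0.04, limma adjusted p = 5.90e-07). Clock genes of the list went both ways, and several were not called. Dbp, a transcription factor under direct clock control, had 388, 476, 505 and 415 normalized reads in the day 7 libraries and 1767, 1565, 1383 and 1496 in the day 11 libraries (log2 difference 1.69, SE 0.08, limma adjusted p = 3.49e-13), and 18% of its exon bases are shared with a gene on the opposite strand. Per3 had 336, 317, 287 and 285 normalized reads in the day 7 libraries and 934, 844, 927 and 954 in the day 11 libraries (log2 difference 1.46, SE 0.07, limma adjusted p = 5.89e-15). The clock repressor Cry1 rose from 194 ± 20.1 to 540 ± 40 (log2 difference 1.34, SE 0.08, limma adjusted p = 1.17e-12). The labels give no hour of harvest, so the part of the time of day was not tested.

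Genes of cell division fell without exception in the mitosis list. All 30 mitosis and cytokinesis genes were tested and all 30 fell (100% against 25.3% of all genes), with a median of -1.44, and 22 fell by at least 1 (2.67% of all genes did). Mki67, the proliferation marker of the chromosome surface, had 957, 1047, 834 and 1068 normalized reads in the day 7 libraries and 154, 166, 178 and 202 in the day 11 libraries (log2 difference -2.29, SE 0.08, limma adjusted p = 8.41e-17). Kif11, the motor that pushes spindle poles apart, had 356, 415, 333 and 364 normalized reads in the day 7 libraries and 43.9, 71, 47.5 and 83.6 in the day 11 libraries (log2 difference -2.22, SE 0.13, limma adjusted p = 5.20e-12). Birc5 (survivin), of the chromosomal passenger complex, fell from 308 ± 42.4 to 47.1 ± 11.2 (log2 difference -2.24, SE 0.12, limma adjusted p = 1.13e-13). The mean log2 value of the 30 genes was 8.12 to 8.44 in the day 7 libraries and 6.73 to 6.91 in the day 11 libraries.

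All 30 genes of DNA replication were tested too; 28 fell (93.3%) and none rose, with a median of -0.72. Thymidine kinase Tk1, which salvages thymidine for DNA synthesis, had 494, 406, 430 and 514 normalized reads in the day 7 libraries and 53.7, 64.5, 71.3 and 91 in the day 11 libraries (log2 difference -2.36, SE 0.11, limma adjusted p = 1.67e-14). Rrm2, the ribonucleotide reductase subunit, had 814, 747, 672 and 930 normalized reads in the day 7 libraries and 166, 189, 202 and 185 in the day 11 libraries (log2 difference -1.92, SE 0.09, limma adjusted p = 3.47e-15). Mcm10, which helps to start the replication fork, fell from 176 ± 29.3 to 42.6 ± 10.6 (log2 difference -1.62, SE 0.13, limma adjusted p = 2.26e-10), and the helicase subunit Mcm5, named after its value was seen, from 756 ± 67.1 to 232 ± 31.6 (log2 difference -1.58, SE 0.08, limma adjusted p = 9.54e-14). Day 7 and day 11 did not overlap for any of the 4. Of 2 inhibitors of cyclin-dependent kinases looked at, Cdkn1a (p21) had 8537, 8005, 8847 and 7846 normalized reads in the day 7 libraries and 4696, 4780, 4823 and 4648 in the day 11 libraries (log2 difference -0.78, SE 0.04, limma adjusted p = 8.34e-14), and Cdkn1b (p27) fell from 4446 ± 276 to 3197 ± 141 (log2 difference -0.46, SE 0.05, limma adjusted p = 7.84e-09). Cyclin D1 (Ccnd1) fell from 8608 ± 422 to 6302 ± 564 (log2 difference -0.44, SE 0.05, limma adjusted p = 3.76e-07), and 23.4% of its exon bases are shared with a gene on the opposite strand.

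Cell cycle motifs were looked for in the promoters of these genes. The cell cycle homology region TTTGAA, read on both strands, was present in 21 of 27 promoters of 25 mitosis genes (77.8%), in 17.9% of all promoters and in 12% of those of genes tested. The CCAAT box was present in 21 of the 27 (77.8%, against 37.4% of all and 38.1% of those of genes tested), but also in 80.0% of the cholesterol list, 65.4% of the replication list, 55.6% of the glucocorticoid and clock list and 53.8% of the FoxO list. Both motifs together were present in 18 of the 27 (66.7%, against 6.95% of all and 4.87% of those of genes tested). The E2F letters TTTGGCGC or TTTCCCGC were present in 9 of 26 promoters of the replication list (34.6%, against 1.56% of all and 2.84% of those of genes tested) and in none of the mitosis list. A match describes the letters and says nothing about binding. The promoters of Mki67 (chr7:135716330-135716629, minus strand), Kif11 (chr19:37376132-37376431, plus strand) and Mcm5 (chr8:75109259-75109558, plus strand), from RefSeq on GRCm38.p6, are shown because they carry those motifs, printed 5′ to 3′ with the matches to either strand in capitals (TTTGAA and CCAAT in the promoters of Mki67 and Kif11, E2F in that of Mcm5).
Mki67: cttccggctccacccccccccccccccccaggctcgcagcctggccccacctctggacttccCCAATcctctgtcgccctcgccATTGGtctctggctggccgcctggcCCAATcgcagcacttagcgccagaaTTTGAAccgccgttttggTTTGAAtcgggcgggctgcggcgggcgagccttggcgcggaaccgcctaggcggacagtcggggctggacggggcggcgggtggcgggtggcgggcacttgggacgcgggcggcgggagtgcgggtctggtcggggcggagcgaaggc
Kif11: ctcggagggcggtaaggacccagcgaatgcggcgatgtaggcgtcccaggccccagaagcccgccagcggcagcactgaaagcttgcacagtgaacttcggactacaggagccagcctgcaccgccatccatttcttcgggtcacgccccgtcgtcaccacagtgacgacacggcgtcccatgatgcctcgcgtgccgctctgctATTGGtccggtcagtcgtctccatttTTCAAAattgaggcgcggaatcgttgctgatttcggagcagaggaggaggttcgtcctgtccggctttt
Mcm5: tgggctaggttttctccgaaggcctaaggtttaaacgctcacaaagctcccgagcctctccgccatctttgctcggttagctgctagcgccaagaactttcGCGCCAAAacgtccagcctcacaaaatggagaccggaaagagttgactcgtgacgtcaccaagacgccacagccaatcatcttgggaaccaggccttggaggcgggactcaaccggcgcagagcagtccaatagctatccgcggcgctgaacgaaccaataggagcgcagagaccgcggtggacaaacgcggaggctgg

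Interferon-stimulated genes rose. Of 30 genes 29 were tested, 21 rose (72.4% against 27.9% of all genes), none fell, and the median was 0.48. Ifit3, an antiviral protein that binds foreign RNA complexes, had 2396, 2182, 3402 and 2141 normalized reads in the day 7 libraries and 8467, 8454, 6906 and 6898 in the day 11 libraries (log2 difference 1.57, SE 0.17, limma adjusted p = 2.30e-04), and it shares 1700 bases at 97.8% identity with Ifit3b, so the split of reads between them is uncertain. Ifit1, which binds RNA that lacks a methylated cap, had 2101, 1921, 2637 and 2014 normalized reads in the day 7 libraries and 5418, 5236, 4773 and 4429 in the day 11 libraries (log2 difference 1.16, SE 0.10, limma adjusted p = 2.33e-05). Rsad2 (viperin), which makes a chain-terminating nucleotide, had 145, 187, 248 and 156 normalized reads in the day 7 libraries and 548, 606, 549 and 486 in the day 11 libraries (log2 difference 1.42, SE 0.12, limma adjusted p = 3.90e-09). The days did not overlap for these genes, but the day 7 libraries differed among themselves, and replicate 3 was the highest of them for all 3.

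Zbp1, a sensor of Z-form nucleic acid, rose from 204 ± 51.7 to 625 ± 93.7 (log2 difference 1.47, SE 0.18, limma adjusted p = 1.03e-04). Irf7, the factor that amplifies interferon production, had 1759, 1261, 1910 and 1418 normalized reads in the day 7 libraries and 2177, 2324, 1818 and 2124 in the day 11 libraries and overlapped between the days (log2 difference 0.41, SE 0.14, limma adjusted p = 0.0467). Its call was lost without day 7 replicate 1 or 4, or without day 11 replicate 1, 2 or 4 (limma adjusted p up to 0.108). GAAA, any 2 bases and GAAA again, the core of the interferon-stimulated response element, was present on either strand in 13 of 25 promoters of 22 genes of the list (52.0%), in 3.44% of all promoters and in 3.05% of those of genes tested. The promoters of Ifit3 (chr19:34583279-34583578, plus strand) and Ifit1 (chr19:34640639-34640938, plus strand), from the same RefSeq table and build, are shown with these matches in capitals.
Ifit3: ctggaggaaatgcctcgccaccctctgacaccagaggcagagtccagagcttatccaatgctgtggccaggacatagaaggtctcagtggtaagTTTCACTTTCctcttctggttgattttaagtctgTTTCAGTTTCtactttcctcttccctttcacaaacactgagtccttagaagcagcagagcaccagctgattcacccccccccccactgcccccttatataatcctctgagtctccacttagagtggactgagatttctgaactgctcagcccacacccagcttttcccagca
Ifit1: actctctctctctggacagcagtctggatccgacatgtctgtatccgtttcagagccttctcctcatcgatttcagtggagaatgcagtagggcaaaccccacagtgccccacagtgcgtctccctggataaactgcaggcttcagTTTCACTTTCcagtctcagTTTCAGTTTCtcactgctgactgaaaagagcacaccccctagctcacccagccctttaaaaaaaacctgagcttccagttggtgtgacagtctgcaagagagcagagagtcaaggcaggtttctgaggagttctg

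Inflammatory genes went both ways. Of 25 NF-kB list genes 22 were tested, 12 rose (54.5%) and 7 fell (31.8%), with a median of 0.32. Cxcl1, a neutrophil chemokine, had 699, 656, 718 and 756 normalized reads in the day 7 libraries and 3842, 3744, 3873 and 3633 in the day 11 libraries (log2 difference 2.31, SE 0.05, limma adjusted p = 1.29e-21), and Ccl2, which draws monocytes, had 2074, 1873, 2141 and 2485 normalized reads in the day 7 libraries and 6794, 6620, 7436 and 6179 in the day 11 libraries (log2 difference 1.60, SE 0.08, limma adjusted p = 7.47e-09). The cytokine Il6 rose from 19.7 ± 7.45 to 82.8 ± 10 (log2 difference 1.36, SE 0.13, limma adjusted p = 6.34e-09). Haptoglobin (Hp), an acute phase protein that fat cells secrete, had 6496, 6628, 6860 and 6828 normalized reads in the day 7 libraries and 3632, 2852, 3249 and 2761 in the day 11 libraries (log2 difference -1.07, SE 0.07, limma adjusted p = 9.35e-09), and lipocalin 2 (Lcn2) fell from 16295 ± 1245 to 8634 ± 590 (log2 difference -0.89, SE 0.05, limma adjusted p = 3.62e-12). Tnfaip3 (A20), which dampens NF-kB, fell from 1134 ± 79.7 to 552 ± 35.2 (log2 difference -0.97, SE 0.06, limma adjusted p = 2.29e-12).

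Matrix genes went both ways. Of 31 genes 30 were tested, 16 rose (53.3%) and 11 fell (36.7%), and the median was 0.29. Chains of the basement membrane collagen IV and of the microfibrillar collagen VI fell: Col4a1 had 141608, 144561, 153264 and 144822 normalized reads in the day 7 libraries and 69373, 68980, 66143 and 72097 in the day 11 libraries (log2 difference -1.05, SE 0.04, limma adjusted p = 1.26e-15), and Col6a2 had 67085, 64829, 70319 and 65466 normalized reads in the day 7 libraries and 31813, 30817, 28106 and 31085 in the day 11 libraries (log2 difference -1.10, SE 0.05, limma adjusted p = 6.87e-16). Their partners Col4a2 (-1.01), Col6a1 (-0.79) and Col6a3 (-0.98) were also called lower. The fibrillar collagens went both ways, and Col1a1 rose from 83723 ± 4075 to 113064 ± 7459 (log2 difference 0.42, SE 0.05, limma adjusted p = 1.78e-07). So did fibronectin (Fn1), from 60826 ± 5801 to 123196 ± 11079 (log2 difference 0.99, SE 0.07, limma adjusted p = 2.46e-09). Col8a1, a short-chain collagen, had 28.5, 23.3, 12.6 and 21.9 normalized reads in the day 7 libraries and 163, 138, 160 and 114 in the day 11 libraries (log2 difference 1.99, SE 0.13, limma adjusted p = 8.03e-12), and the small proteoglycan Fmod rose from 115 ± 14.6 to 338 ± 92.6 (log2 difference 1.37, SE 0.14, limma adjusted p = 5.83e-07).

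Contractile genes rose. Of 23 genes driven by the actin-sensing factors SRF and YAP, 21 were tested, 17 rose (81.0%) and 1 fell (4.76%), with a median of 0.44. Acta2 (smooth muscle actin) had 1422, 1559, 1590 and 1655 normalized reads in the day 7 libraries and 5997, 5121, 5774 and 4485 in the day 11 libraries (log2 difference 1.71, SE 0.08, limma adjusted p = 1.31e-08). Ccn1, a matricellular YAP target, had 1743, 1951, 2035 and 1689 normalized reads in the day 7 libraries and 5383, 5038, 5737 and 4673 in the day 11 libraries (log2 difference 1.44, SE 0.06, limma adjusted p = 1.13e-11), and Ankrd1 rose from 23.4 ± 8.84 to 123 ± 4.17 (log2 difference 1.69, SE 0.13, limma adjusted p = 1.22e-10). The gene that fell was Lmod1 (-1.05), which nucleates actin in smooth muscle. The smooth muscle myosin Myh11, a marker outside the list, fell from 24.2 ± 3.79 to 8.18 ± 3.81 (log2 difference -0.57, SE 0.13, limma adjusted p = 6.92e-04).

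In the preadipocyte and anti-adipogenic list 22 of 25 genes were tested, 14 rose (63.6%) and 4 fell (18.2%), with a median of 0.21. The immediate early factor Egr1 had 1812, 1883, 1680 and 1702 normalized reads in the day 7 libraries and 4768, 4410, 5106 and 4515 in the day 11 libraries (log2 difference 1.36, SE 0.05, limma adjusted p = 4.13e-17), and the receptor Pdgfrb, a marker of fat precursors, had 3207, 3155, 3509 and 3366 normalized reads in the day 7 libraries and 6185, 5787, 5758 and 5905 in the day 11 libraries (log2 difference 0.81, SE 0.04, limma adjusted p = 4.86e-14). Both were higher in every day 11 library. The Notch target Hes1 rose by 0.70. Dlk1 (Pref-1), which blocks differentiation, had 80460, 87079, 94117 and 84904 normalized reads in the day 7 libraries and 97368, 105077, 90538 and 107235 in the day 11 libraries and overlapped between the days (log2 difference 0.20, SE 0.05, limma adjusted p = 0.00327). Klf2 (-0.89), the ligand Wnt6 (-0.80) and the surface protein Thy1 (-0.65) were called lower.

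**Figure D2:**
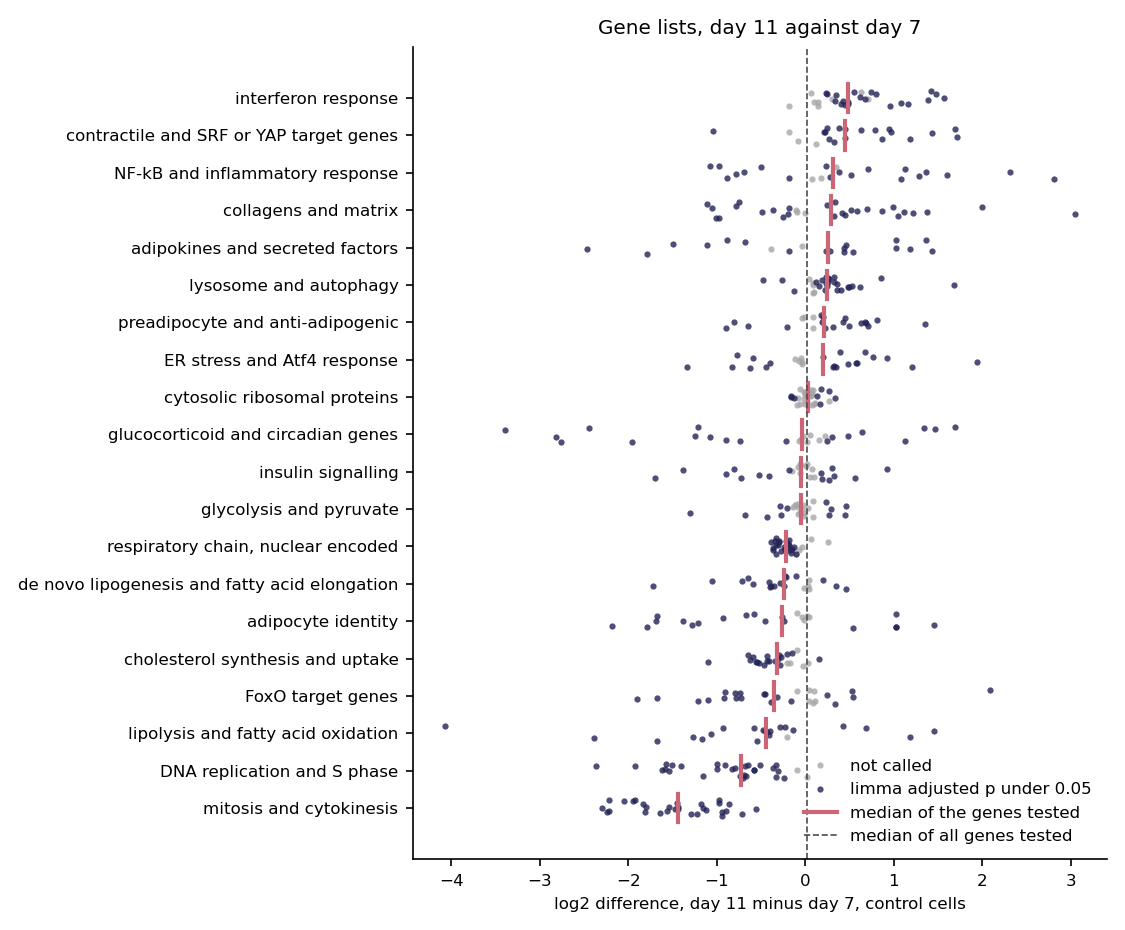
Log2 difference, day 11 minus day 7, in control cells (x axis) for the tested members of 20 gene lists (y axis), 1 point per gene, dark where called; red bars are list medians and the dashed line is the median of all genes tested, 0.02. The mitosis list lies furthest to the left, with a median of -1.44, and the interferon list furthest to the right, with 0.48.

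The nuclear genes of the respiratory chain fell by small and even amounts. Of 30 genes 29 were tested, 24 fell (82.8%) and none rose, and their differences ran from -0.39 to 0.26 with a median of -0.22. Uqcrc1, a core subunit of complex III, had 5332, 5347, 5401 and 5495 normalized reads in the day 7 libraries and 4190, 4143, 4066 and 3935 in the day 11 libraries (log2 difference -0.39, SE 0.04, limma adjusted p = 4.55e-09), and the ATP synthase subunit Atp5a1 fell from 16885 ± 222 to 13016 ± 228 (log2 difference -0.36, SE 0.04, limma adjusted p = 1.32e-08). None of the 29 genes changed by as much as 1 on the log2 scale.

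Of 24 glycolysis and pyruvate genes, 11 were called (45.8%, near the 53.1% of all genes), 5 higher and 6 lower, with a median of -0.05. The large change was that of pyruvate carboxylase (Pcx), which feeds carbon to lipid synthesis, with 19548, 19152, 19710 and 19153 normalized reads in the day 7 libraries and 8304, 7596, 7216 and 7527 in the day 11 libraries (log2 difference -1.30, SE 0.04, limma adjusted p = 8.12e-18). Pdha1, of the pyruvate dehydrogenase complex, fell from 7960 ± 172 to 4878 ± 129 (log2 difference -0.68, SE 0.04, limma adjusted p = 1.92e-13). Slc2a1, the insulin-independent glucose transporter, had 8942, 9212, 11296 and 8336 normalized reads in the day 7 libraries and 10681, 14520, 12307 and 14962 in the day 11 libraries and overlapped between the days (log2 difference 0.46, SE 0.14, limma adjusted p = 0.028). Its call was lost without day 7 replicate 1, 2 or 4, or without day 11 replicate 2, 3 or 4 (limma adjusted p up to 0.071). Cytosolic ribosomal protein genes were called in 8 of 30 cases (26.7%), 5 higher and 3 lower, with differences from -0.17 to 0.34. With the libraries scaled to equal totals, 13 were called.

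In the list for endoplasmic reticulum stress, 20 of 25 genes were called, 13 higher (52.0%) and 7 lower (28.0%), and the median was 0.20. Among those that rose were targets of the amino acid response factor Atf4: Slc7a11, the cystine importer, had 373, 302, 370 and 431 normalized reads in the day 7 libraries and 1274, 1361, 2058 and 1553 in the day 11 libraries (log2 difference 1.95, SE 0.16, limma adjusted p = 2.04e-05), and Chac1, which degrades glutathione, rose from 793 ± 98.9 to 1894 ± 133 (log2 difference 1.20, SE 0.07, limma adjusted p = 1.35e-10). Among those that fell were genes of protein folding, Xbp1, the transcription factor of the unfolded protein response, which went from 3802 ± 58.4 to 2095 ± 172 (log2 difference -0.83, SE 0.05, limma adjusted p = 4.90e-13), and the chaperone cofactor Sdf2l1, which fell by 0.77. Ddit4, an inhibitor of the growth kinase mTORC1, fell from 6999 ± 443 to 2696 ± 354 (log2 difference -1.34, SE 0.09, limma adjusted p = 2.04e-06). The split was not complete. Of the same list, Mthfd2 was also called lower (-0.618) and Herpud1 higher (0.573), while Psat1 (-0.031) and Slc7a5 (-0.111) were not called.

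Most genes of the joint lysosome and autophagy list rose. All 29 genes were tested, 21 rose (72.4%) and 3 fell (10.3%), with a median of 0.25. The glycoprotein Gpnmb had 48.2, 39.6, 43.7 and 26.6 normalized reads in the day 7 libraries and 161, 214, 168 and 187 in the day 11 libraries (log2 difference 1.68, SE 0.12, limma adjusted p = 4.87e-11), and the autophagy receptor Sqstm1 (p62) had 19772, 19688, 23229 and 22209 normalized reads in the day 7 libraries and 36796, 39105, 41072 and 39109 in the day 11 libraries (log2 difference 0.86, SE 0.05, limma adjusted p = 1.13e-12). Both were higher in every day 11 library. The genes that fell were the autophagy gene Wipi1 (-0.48), the transcription factor Tfeb (-0.26) and the proton pump subunit Atp6v0d1 (-0.12). Among the 5 genes not called were the autophagy genes Map1lc3b (0.085), Gabarapl1 (0.044) and Ulk1 (0.101).

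The levels at days 0 and 3 show where these genes stood earlier in the same control cells, and are given as descriptions because the day 7 libraries enter both steps. Mean normalized reads of Fam107a at days 0, 3, 7 and 11 were 0.695, 3317, 4369 and 22.9, and those of Fkbp5 were 1254, 26344, 25676 and 3445. Both genes were high at days 3 and 7 and lower at day 11, though still above their day 0 level. Thbs1 had 34255, 1807, 1613 and 14383, Cxcl5 28404, 1847, 2392 and 17777 and Acta2 21099, 268, 1556 and 5344. These genes were high before induction, low at days 3 and 7 or rising by day 7, and higher again at day 11, though below day 0.

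Ifit3 had 3914, 16.1, 2530 and 7681 mean normalized reads over the 4 days, so that its low point was day 3. Mki67 had 1434, 1366, 977 and 175, with its low point at day 11. Adipoq had 0.207, 8.96, 1709 and 2520 and Cfd 0, 44.3, 1538 and 3222, both highest at day 11. Fabp4 had 88.7, 5777, 15506 and 4687, Pnpla2 623, 8804, 8115 and 2443 and Slc2a4 0.21, 6.86, 312 and 111. These last 3 were lower at day 11 than at day 7 but above their day 0 level.

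**Figure D3:**
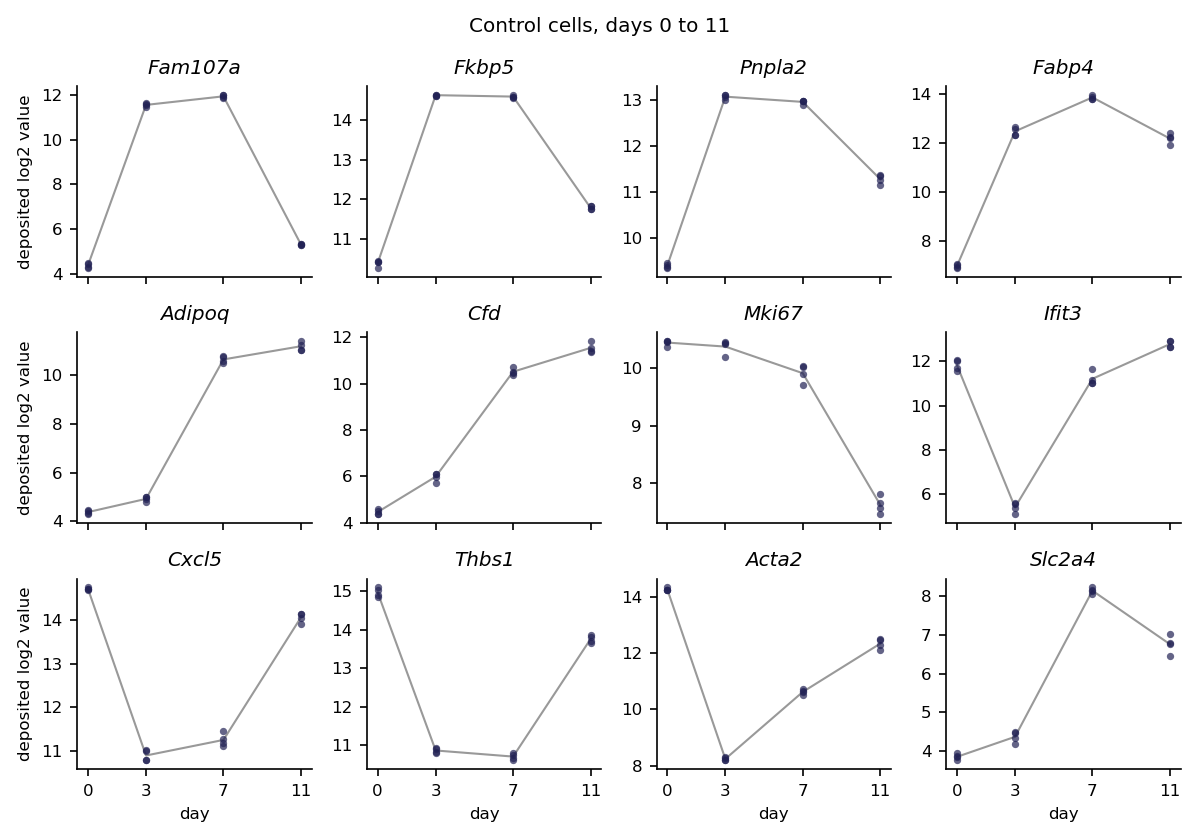
Deposited log2 values (y axis, own scale in each panel) of 12 genes in the 16 control libraries at days 0, 3, 7 and 11 (x axis), 1 point per library and a line through the means. Fam107a and Fkbp5 rise to day 3 and drop by day 11, while Adipoq and Cfd are highest at day 11.

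The same step in the Zbtb9 knockdown cells shows which of these changes differed there. At day 7 Zbtb9 had 14.8, 17.2, 22.3 and 12.7 normalized reads in control, 6.09 and 9.28 with shRNA #1 and 8.39 and 4.87 with shRNA #2. At day 11 it had 17.9, 12.1, 20 and 12.1 in control, 8.17 and 19.3 with shRNA #1 and 2.13 and 4.25 with shRNA #2. All knockdown libraries but the library labelled shRNA #1, day 11, replicate 2 were below every control library of their day. Zbtb9 did not change between the days in control at the threshold (log2 difference -0.04, SE 0.13, limma adjusted p = 0.835), and 84.4% of its exon bases are shared with another gene on the same strand.

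With both shRNAs as 1 arm of 8 libraries, the change from day 7 to day 11 differed between knockdown and control for 1394 of 13439 genes (10.4%), higher in knockdown for 547 (4.07%) and lower for 847 (6.3%). Without control day 11 replicate 3 this count was 927, with the shRNAs as separate groups it was 2981, and with a replicate block it was 2155. It was 1587 without the library labelled shRNA #1, day 11, replicate 2, whose Zbtb9 reads lay within the control range. Of the genes called in control, 941 (13.3%) differed. The log2 change of Rnd2, a small GTPase, was -0.46 in control and -1.97 in knockdown cells (difference -1.51, SE 0.13, limma adjusted p = 1.40e-06). That of Hilpda, a lipid droplet protein that inhibits Pnpla2, was -1.19 in control and 0.50 in knockdown cells (difference 1.69, SE 0.21, limma adjusted p = 1.83e-04), and that of Depp1, a FoxO target, was -1.02 in control and 0.85 in knockdown cells (difference 1.87, SE 0.27, limma adjusted p = 3.18e-04). Kctd11 changed by -0.95 in control and 0.92 in knockdown cells (difference 1.87, SE 0.20, limma adjusted p = 5.04e-05). Hilpda, Depp1 and Kctd11 thus went down in control while their knockdown means were higher at day 11.

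Among the genes described above, Fam107a changed by -6.63 in control and -5.34 in knockdown cells (difference 1.28, SE 0.13, limma adjusted p = 7.57e-06) and Aldh1a7 by -4.01 in control and -2.39 in knockdown cells (difference 1.62, SE 0.16, limma adjusted p = 2.01e-05). Errfi1 changed by -3.39 in control and -2.58 in knockdown cells (difference 0.81, SE 0.07, limma adjusted p = 3.37e-06), a smaller fall in knockdown, and Fkbp5 by -2.81 in control and -3.58 in knockdown cells (difference -0.77, SE 0.12, limma adjusted p = 4.04e-04), a larger one. Lpl changed by 1.02 in control and 0.03 in knockdown cells (difference -1.0, SE 0.20, limma adjusted p = 0.00556): it rose in control, and its knockdown means were nearly level. Cdkn1a changed by -0.78 in control and -0.16 in knockdown cells (difference 0.62, SE 0.08, limma adjusted p = 5.04e-05). Sorbs2 rose less in knockdown, with 3.28 in control and 1.77 in knockdown cells (difference -1.51, SE 0.27, limma adjusted p = 0.00156). The change of H2ac6, a histone H2A gene, was -0.08 in control and 1.71 in knockdown cells (difference 1.80, SE 0.23, limma adjusted p = 6.56e-05). Krt15, a keratin, changed by -1.44 in control and -3.73 in knockdown cells (difference -2.29, SE 0.39, limma adjusted p = 0.00186). B3gnt6, a mucin glycosyltransferase, was below the filter in all control libraries of both days and entered the fit through the knockdown libraries, mainly those of day 7, where it was high, so its difference of -2.80 is a description. The change of Krt19, another keratin, was -1.12 in control and lower in knockdown by -1.63 (limma adjusted p = 0.00278), but it was below the filter in every day 11 control library, so the control change comes from a gene that passed through day 7, and day 7 control replicate 1 stood above the other day 7 libraries.

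By list, read against 10.4% of all genes differing, 4.07% higher and 6.3% lower in knockdown, the change differed for 24 of 29 respiratory chain genes, all lower in knockdown, where the median change was -0.55 beside -0.22 in control. It differed for 17 of 30 mitosis genes, all lower in knockdown, with medians of -2.43 and -1.44. In the FoxO list 7 of 26 genes differed, all higher in knockdown, with medians of -0.01 and -0.35, and in the glucocorticoid and clock list 11 of 26 differed, 7 higher and 4 lower. No gene of the interferon list (29 tested) or of the ribosomal list (30 tested) was called different by limma at an adjusted p under 0.05, with interferon medians of 1.08 in knockdown and 0.48 in control. Some interferon differences had wide errors, such as Ifit3 (1.17, SE 1.04) and Ifit1 (0.71, SE 0.84). The lack of calls therefore does not show equal change in that list.

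**Figure D4:**
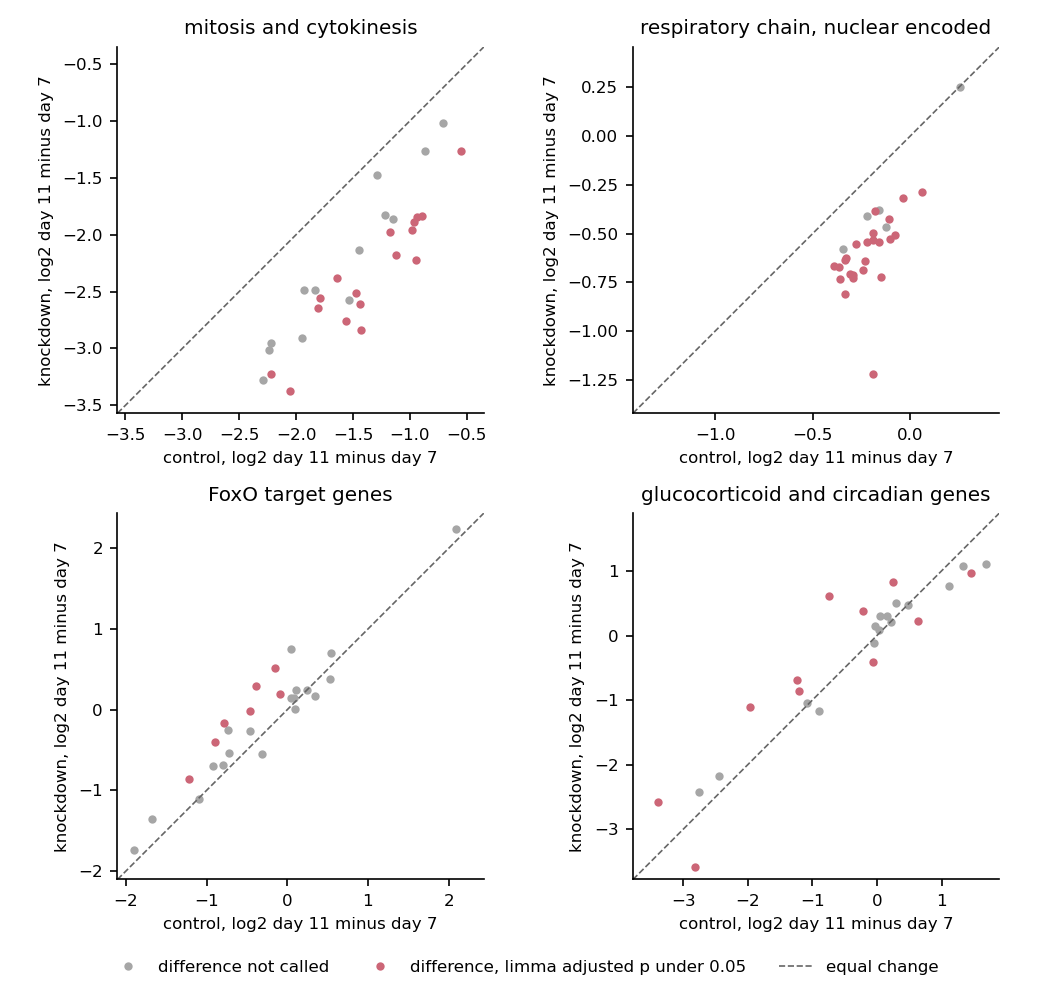
Log2 change from day 7 to day 11 in control (x axis) and in Zbtb9 knockdown cells (y axis, mean of both shRNAs) for the tested members of 4 lists, 1 point per gene; red marks genes whose change differed and the dashed line marks equal change. All 30 mitosis genes lie below the line, and 24 of 29 respiratory chain genes are red.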

How the data were processed

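Per the labels' protocols, total RNA from a spin-column kit went into an Illumina TruSeq RNA preparation. The submitters' processing notes name TopHat2 2.1.0, Bowtie2 2.2.6, SAMtools 1.3.1 and HTSeq 0.6.1; the genome build, annotation, strand setting and normalization are not given in the sources used here. The authors deposited 1 table of 20560 genes in 32 libraries whose values are on a log2 scale, from -1.56 to 17.99, with the form of a regularized log transform. Reads were rebuilt by inverting such a transform: 99.66% of the tested genes' values in these 8 libraries lay within 0.1 of whole numbers of reads (20% by chance). The labels name no molecular identifiers, so floors (3 reads in every library of a group) hold for counting error alone.

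limma 3.58.1 (R 4.3.3; trend, robust, no pseudocount, no covariate) was fitted to the deposited values of genes with 2 to the power of the value of at least 10 in at least 4 libraries, with Benjamini-Hochberg adjustment over all genes tested and a call at an adjusted p under 0.05. The knockdown difference is the interaction in a fit of 16 libraries. In data simulated for day 11 against day 7 (13293 genes, 200 changed), 97.1% of changes of 0.5 were recovered. For changes of 1 or 2 this was 100%. Of the calls, 3.88% were false, and fitted changes were 0.94 of the true ones. Recovery of changes smaller than 0.5 was not tested, although the median size of a difference between the days was 0.18. A share of changed genes as large as the 53.1% called between the days was not tested either. The members and the 25 gene lists were chosen with earlier results of these data known. Genes were named by rule: a panel of 32, the 10 largest rises and falls without overlap and with a mean of at least 50, up to 3 called rises and 3 called falls per list, and up to 5 interactions each way. Same-numbered libraries of the days were not paired: the correlations of their deviations were 0.123, -0.094, -0.068 and -0.077. Positions are from GENCODE M21 (GRCm38), matched by Ensembl identifier for 20532 genes, and promoters from RefSeq. Alternatives covered the filter, scaling, transform, libraries in the fit, the replicate block and each library left out. Some genes the rule names are not reported here.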

Additional observations from a re-analysis of the deposited data

Results flagged for a closer look

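Of 294 groups of 4 control libraries looked at, 1 for each named gene and day, 13 had a library whose gap to its nearest neighbour took more of the range than Dixon's 95% limit allows; chance flags about 1 in 20. At day 7 the outlying log2 values were the 5.06 of Krt19 in replicate 1 (next 4.13), the 14.07 of Atp5a1 in replicate 1, the 12.90 of Pnpla2 in replicate 2 and the 9.86 of Gadd45a in replicate 3. Replicate 4 of day 7 was low for Ddit4 (12.62), Tsc22d3 (13.23) and B3gnt6 (2.56). At day 11 replicate 1 was high for Fads1 (11.96), Gbp11 (8.54) and Lep (-0.25) and low for Trib1 (9.89) and B3gnt6 (2.35), and replicate 4 was low for Thy1 (10.80). Lep and B3gnt6 had only a few reads.

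For 44 named genes the change from day 7 to day 11 differed between knockdown and control in the limma interaction. The limma adjusted p ran from 1.40e-06 (Rnd2) to 0.044 (Wipi1). The named genes tested in control numbered 145, B3gnt6 not among them. Over all genes tested 10.4% differed, 4.07% higher and 6.3% lower in knockdown. Some of the 44 were named because their interaction was called, so the count of 44 is a description. The change was higher in knockdown for 21: by 1.87 on the log2 scale for Depp1 and for Kctd11, 1.80 for H2ac6, 1.69 for Hilpda, 1.62 for Aldh1a7, 1.28 for Fam107a, 1.25 for Adrb3, 1.08 for Thrsp and 1.01 for Klf2. Smaller differences were those of Per1 (0.85), Errfi1 (0.81), Slc2a1 (0.80), Ccn1 (0.71), Cdkn1a (0.62), Sgk1 (0.58), mt-Cytb (0.52), Cdkn1b (0.44), Thbs1 (0.38), Klf9 (0.36), Srebf1 (0.35) and Wipi1 (0.24). It was lower in knockdown for 23, by -2.80 for B3gnt6, -2.29 for Krt15, -1.63 for Krt19, -1.51 for Sorbs2 and for Rnd2, -1.26 for Mcm5 and -1.0 for Lpl. The rest were Acsl1 (-0.94), Kif26b (-0.93), Ear2 (-0.90), Cyb561 (-0.84), Aqp5 (-0.82), Gpnmb (-0.81), Fkbp5 (-0.77), Col8a1 (-0.77), Rrm2 (-0.68), Cyp51 (-0.67), Tk1 (-0.62), Hes1 (-0.57), Per3 (-0.50), Egr1 (-0.44), Atp5a1 (-0.31) and Uqcrc1 (-0.28). B3gnt6 was below the filter in all these control libraries and Krt19 in those of day 11, so they entered through the groups where they were high. Klf2, Depp1, Kctd11 and Hilpda were called lower at day 11 in control, and their knockdown means were higher at day 11.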

How the results depend on the processing

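The count of genes changed between the days ran from 6497 to 7370 over 18 alternatives and stayed within 1.5 times 7060, with 6817 under the replicate block. Genes changed by at least 1 numbered 934 as log2 of rebuilt normalized reads plus 1 and 952 with voom, against 548 on the deposited values. The knockdown difference was called for 2981 genes with the shRNAs as separate groups, for 2155 with the replicate block, and for 927 to 1587 with 1 library left out, the lowest without control day 11 replicate 3, against 1394. Of 145 named genes tested, 138 kept their direction and their side of the threshold in all 18 alternatives. Direction turned near 0 for 3 uncalled genes when 1 library was left out: over the 8 such fits Cd36 ran from -0.07 to 0.01 (without day 7 replicate 1), H2ac6 from -0.19 to 0.00 (without replicate 2 of either day) and Zbtb9 from -0.08 to 0.02 (without day 7 replicate 3; 0.00 without day 11 replicate 2 or 4). Calls of Fdft1, Irf7 and Slc2a1 were lost in some alternatives (adjusted p up to 0.112, 0.127 and 0.071), the first pair under the replicate block too, and Insr was called in some (lowest adjusted p 0.0259). The replicate block lost no other call among the named genes. The cause was not tested. Depth limits genes of few reads, such as Lep and Zbtb9.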

Other observations

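Gene families were looked at by the letters of the symbol before its first digit, a grouping made after the values were seen. Of 395 such families with at least 5 genes tested, 4 had every tested gene called in 1 direction. They were chosen by that readout, so the counts are descriptions. Besides the Ifit family (5 genes, all higher), they were the guanylate-binding proteins, interferon-inducible GTPases (Gbp, 11 genes, all higher, median 0.87), the Serpina3 protease inhibitors (8 genes, all lower, median -1.67) and the flavin monooxygenases (Fmo, 5 genes, all lower, median -0.49). Gbp11 had 166, 89.2, 149 and 140 normalized reads in the day 7 libraries and 460, 393, 383 and 393 in the day 11 libraries (log2 difference 1.41, SE 0.12, limma adjusted p = 7.63e-09). Serpina3f had 1412, 1600, 1324 and 1584 normalized reads in the day 7 libraries and 136, 158, 151 and 136 in the day 11 libraries (log2 difference -3.12, SE 0.07, limma adjusted p = 2.21e-20). Neither gene overlapped between the days. Members of the Gbp and Serpina3 families resemble each other, so the split of reads among them is uncertain.

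Transcripts of the mitochondrial genome did not move as 1 block. Together they took 0.836 to 0.908% of reads at day 7 and 0.702 to 0.754% at day 11 (exact permutation test, two-sided, p = 0.0286 with 4 libraries a day, the smallest these numbers allow; adjusted over 6 such values, 0.0286). Cytochrome c oxidase subunit mt-Co1 had 97194, 107388, 107619 and 105062 normalized reads in the day 7 libraries and 61458, 63555, 59310 and 62402 in the day 11 libraries (log2 difference -0.74, SE 0.04, limma adjusted p = 1.29e-12), and mt-Cytb had 20020, 22981, 21400 and 22573 normalized reads in the day 7 libraries and 12613, 12920, 12831 and 12829 in the day 11 libraries (log2 difference -0.74, SE 0.04, limma adjusted p = 5.39e-13). The ribosomal RNA mt-Rnr2 went the other way, with 14544, 13958, 13172 and 14608 normalized reads in the day 7 libraries and 27210, 33174, 33531 and 28478 in the day 11 libraries (log2 difference 1.08, SE 0.06, limma adjusted p = 1.79e-11), as did mt-Rnr1 (log2 difference 0.83, SE 0.05, limma adjusted p = 7.70e-12). The summed share covers only reads counted for these genes. At day 7 mt-Co2, mt-Atp6 and mt-Co3 had means of 242, 117 and 152 normalized reads, far below the 104316 of mt-Co1. Why so few were counted for these 3 genes was not tested. How much of each library was selected by poly(A) tail was not tested either.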
